A study of Mus musculus with 16 samples.

Results

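Liver and white fat of control offspring were compared in 8 of the 16 array libraries of a study of paternal obesity in mice. The members were chosen by the sample labels alone and no measured value entered the choice: 4 libraries of liver and 4 of eWAT, the labels' name for a white adipose depot, all from the offspring called CT. These were males of the inbred strain C57BL/6J, born to control parents and sampled at 14 weeks of age. Their fathers ate chow for 12 weeks from the age of 8 weeks before mating, per the labels' protocols. The other 8 libraries, 4 per tissue, came from offspring of the same sex, strain and age called F1, whose mothers were controls and whose fathers ate a diet with 45% lipid over the same 12 weeks. They enter here only in the last comparison. Each library was made from frozen whole tissue, so fewer cells of a type and less RNA per cell cannot be told apart. Replicates are labelled as biological, but fathers, litters and whether a liver and an eWAT library share an animal are not stated in the labels. The p-values therefore reflect only how far these libraries varied.

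Liver and white fat share the handling of fuel but divide the work. Hepatocytes, the main cells of liver, make glucose, urea, bile acids and most plasma proteins, detoxify foreign compounds with cytochromes P450 and conjugating enzymes, and are specified by a network of transcription factors that includes HNF4A, the FOXA factors and the C/EBP family. Adipocytes store triglyceride in 1 large droplet coated by perilipin, release fatty acids by lipolysis, secrete hormones such as leptin and adiponectin, and depend on PPARG, C/EBP and EBF factors, within a stroma of fibroblasts, mesothelium, vessels and macrophages that lays down much of the extracellular matrix.

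Promoters of a few genes at the extremes of the comparison show the letters that such factors are known to bind. They are shown because leptin and perilipin 1 were among the 10 genes with the largest differences towards eWAT. Aldh8a1 (an aldehyde dehydrogenase) had the largest difference towards liver over all 8 libraries, and Alb is a liver gene whose level differed among the eWAT libraries. Each runs from 250 bases before to 50 bases after the RefSeq start (GRCm38.p6), 5′ to 3′ on the gene's strand. Alb lies at chr5:90460620-90460919, Aldh8a1 at chr10:21377050-21377349 and Lep at chr6:29059971-29060270, all on the plus strand, and Plin1 at chr7:79732727-79733026 on the minus strand. Capitals mark the HNF4 core AAAGTCC in Aldh8a1, the C/EBP core TTNNGCAA in Alb, Lep and Plin1, and the EBF core CCCNNGGG in Plin1, each searched on both strands.
Alb: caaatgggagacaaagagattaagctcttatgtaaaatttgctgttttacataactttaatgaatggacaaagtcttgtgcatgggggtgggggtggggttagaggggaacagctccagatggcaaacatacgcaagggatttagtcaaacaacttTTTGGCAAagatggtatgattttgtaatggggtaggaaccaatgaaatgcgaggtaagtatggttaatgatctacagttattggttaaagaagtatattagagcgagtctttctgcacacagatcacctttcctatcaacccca
Aldh8a1: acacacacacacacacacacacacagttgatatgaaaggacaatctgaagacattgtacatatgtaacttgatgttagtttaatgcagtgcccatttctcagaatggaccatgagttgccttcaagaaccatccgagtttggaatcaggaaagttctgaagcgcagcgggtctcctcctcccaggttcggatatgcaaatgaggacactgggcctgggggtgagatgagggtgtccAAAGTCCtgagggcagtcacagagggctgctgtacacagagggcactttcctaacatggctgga
Lep: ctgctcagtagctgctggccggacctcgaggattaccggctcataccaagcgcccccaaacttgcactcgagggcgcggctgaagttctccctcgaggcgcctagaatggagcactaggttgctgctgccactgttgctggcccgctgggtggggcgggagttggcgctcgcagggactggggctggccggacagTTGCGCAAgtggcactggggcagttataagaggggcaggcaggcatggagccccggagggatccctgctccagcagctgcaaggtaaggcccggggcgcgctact
Plin1: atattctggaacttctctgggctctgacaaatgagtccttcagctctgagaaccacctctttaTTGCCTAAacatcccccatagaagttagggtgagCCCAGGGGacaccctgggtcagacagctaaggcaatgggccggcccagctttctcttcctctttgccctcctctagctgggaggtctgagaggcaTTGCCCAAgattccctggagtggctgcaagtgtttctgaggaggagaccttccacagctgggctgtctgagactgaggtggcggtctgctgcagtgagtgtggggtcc
Across genes, the same letters were counted in 1 promoter per gene, the first listed, for 12244 of the 15166 genes tested. AAAGTCC was in 11.6% of the 605 promoters of genes at least 16-fold higher in liver, in 3.61% of the 554 promoters of genes at least 16-fold higher in eWAT and in 4.39% of all 12244. TTNNGCAA was in 15.5%, 9.93% and 9.32% of the same sets. CCCNNGGG was in 15.5%, 20% and 16.5%. The forkhead (FOXA) core TGTTTAC was in 4.3%, 2.53% and 2.83%. The TATA box TATAAA, searched on the gene's strand only, was in 10.7%, 6.5% and 6.99%. The GC box GGGCGG was in 38.3% of the liver set, 61.4% of the eWAT set and 55.1% of all. The median GC content was 53.3%, 61% and 58.7%, so the sets differed in base composition as well as in these letters. The promoters shown all hold a marked match, which other genes at the extremes did not always do. Adipoq, Nnat, Retn and Tat, each among the 10 largest differences of a direction, held none of the letters searched in this window. Hnf4a held only the GC box, while Saa4 held TTNNGCAA and Prkar2b held CCCNNGGG and the GC box. A match is a description of the letters and does not show binding.

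Deposited log2 values of the tissues did not share a distribution, with library medians of 5.21 to 5.24 in liver and 6.34 to 6.56 in eWAT. All 8 libraries were therefore brought to 1 distribution (quantile normalization), and every level below is a log2 value on that scale and every difference is liver minus eWAT ± its standard error (SE) from the fit. Pearson correlations over probe sets were 0.990 to 0.991 within liver, 0.976 to 0.991 within eWAT and 0.754 to 0.798 between tissues. Values of 3.70 or less lie below the 25th percentile of the scale and are called dim. The brightest values were tied at the deposited ceiling of 19.93, which 16 genes reached in all 4 liver libraries. Their differences are compressed, and for Scd1, at the ceiling in all 8 libraries, no difference could be measured.

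Several libraries stood apart. The eWAT libraries 3 and 4 held far more hepatocyte transcript than eWAT libraries 1 and 2. Alb, the gene of serum albumin, was 14.05, 12.07, 19.47 and 19.18 in eWAT libraries 1 to 4 and 19.57 to 19.62 in liver. Apoa1, the main protein of high-density lipoprotein, was 8.01, 6.52, 14.49 and 14.40 in the same eWAT libraries. The summed level of the 10 hepatocyte markers (log2 of the sum) ran from 17.64 to 20.16 over the eWAT libraries and from 22.48 to 22.56 in liver. Cyp2e1, a marker on this list that was high in every eWAT library, supplied most of the lowest sum. The median level of the list was 8.04, 6.75, 14.40 and 14.15 in eWAT libraries 1 to 4 and 19.40 to 19.62 in liver. The eWAT library 4 also held sperm transcripts: the protamine genes Prm1 and Prm2, which package sperm DNA, were 11.10 and 10.92 there and 2.97 to 4.29 in eWAT libraries 1 to 3. In liver library 2 the pancreatic amylase Amy2a5 was 10.31, against 5.53 to 7.36 in the other liver libraries. Because of this, every difference was also fitted without eWAT libraries 3 and 4, an alternative chosen after seeing the data. The value without them stands beside each tested gene below whose difference moved by a factor of over 1.5 on the unlogged scale or whose call changed. Of the genes called higher in liver, 143 moved by over 1 log2 unit.

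**Figure D1:**
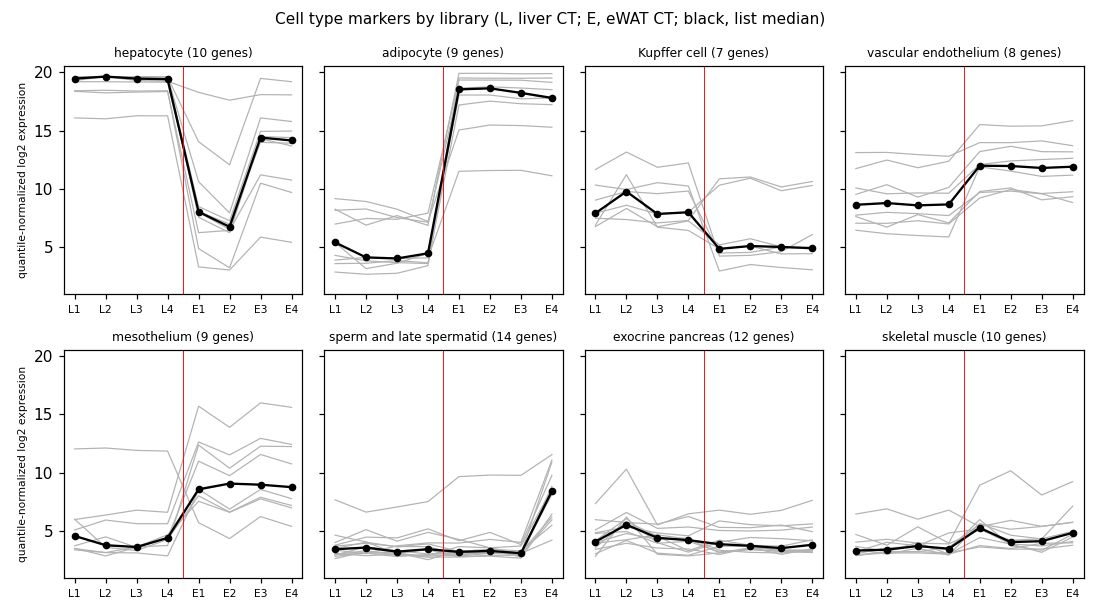
Quantile-normalized log2 expression (y axis) of cell type marker lists in each library (x axis; L1 to L4, liver CT; E1 to E4, eWAT CT). Grey lines are single genes, the black line is the list's median and the vertical line divides the tissues. Hepatocyte markers are higher in E3 and E4 than in E1 and E2, and sperm genes are raised in E4 (Prm1 at 11.10).

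Genes differed between the tissues in each direction. With limma, 3368 of 15166 genes (22.2%) were higher in liver and 3885 (25.6%) higher in eWAT at an adjusted p under 0.05 and a difference of at least 1, which is 2-fold. The median over all genes tested was 0.0018, a balance that the quantile normalization sets by giving all libraries 1 distribution. At least 16-fold, 761 genes (5.02%) were higher in liver and 728 (4.8%) in eWAT. The split depended on the scaling: 1835 and 6700 genes were called on the deposited values, where the median difference of all genes was -0.84, and 3901 and 3070 after centring each library on its median, where it was 0.22. Without eWAT libraries 3 and 4, 3117 and 3843 were called. Of the genes called in all 8 libraries, 2965 of those higher in liver and 3616 of those higher in eWAT were called again without them. Without eWAT libraries 3 and 4, the median difference of 7 function lists moved by a factor of over 1.5 on the unlogged scale. In log2 units it went from 9.10 to 11.64 for plasma carriers and protease inhibitors, 8.95 to 10.99 for apolipoproteins and 10.16 to 11.36 for cytochromes P450. It went from 7.80 to 8.70 for glucose production, 9.64 to 10.42 for hepatocyte transporters and 9.20 to 9.82 for amino acid breakdown. For adipose receptors it went from -3.75 to -4.35.

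**Figure D2:**
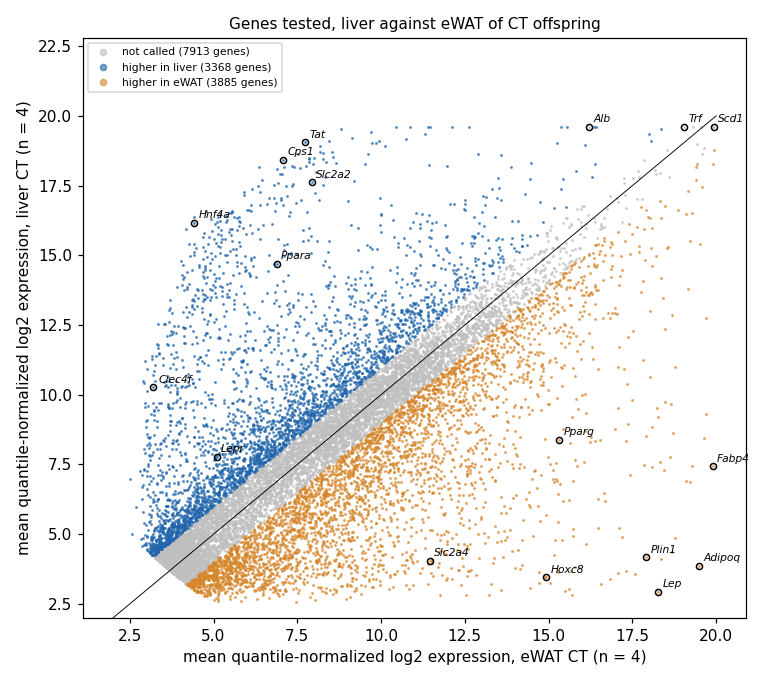
Mean quantile-normalized log2 expression of each of the 15166 genes tested in eWAT CT (x axis, n = 4) against liver CT (y axis, n = 4), with the line of equal values. Blue points are the 3368 genes called higher in liver, orange points the 3885 called higher in eWAT and grey points the genes not called. Adipoq and Lep lie at the far right, near the bottom, and the liver genes Hnf4a, Cps1 and Tat near the top at the left.

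The largest differences towards liver belonged to metabolic enzymes, plasma proteins and a regulator of transcription. Aldh8a1, an aldehyde dehydrogenase of tryptophan breakdown, was 16.19, 16.54, 16.39 and 16.30 in liver libraries 1 to 4 and 3.69, 3.45, 5.77 and 4.71 in eWAT libraries 1 to 4. Hnf4a, the nuclear receptor that maintains hepatocyte identity, was 16.08, 16.01, 16.27 and 16.26 in liver and 3.32, 3.05, 5.87 and 5.43 in eWAT. In both genes every liver library lay far above every eWAT library, and eWAT libraries 3 and 4 lay above 1 and 2. The differences were 11.95 ± 0.43 for Aldh8a1 (adjusted p = 1.35e-09) and 11.74 ± 0.57 for Hnf4a (adjusted p = 1.27e-08), and 12.76 and 12.88 without eWAT libraries 3 and 4. The others of the 10 were Saa4 (a constitutive serum amyloid), Cyp4a10 and Cyp4a12a (fatty acid hydroxylases), Rgn (regucalcin), Afm (afamin, a carrier of vitamin E), A1cf (a partner in apolipoprotein B mRNA editing), Cps1 and Tat, with differences of 11.31 to 11.81 (12.39 to 14.79 without eWAT libraries 3 and 4). The order depended on those libraries. Without them Tat (14.79), Cps1 (14.59) and Pzp (14.79), which was not among the 10, lay above Aldh8a1 (12.76).

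Towards eWAT the largest differences were those of the hormone genes Adipoq and Lep. Adipoq, the gene of adiponectin, was 19.51, 19.48, 19.48 and 19.50 in eWAT and 4.31, 3.84, 3.69 and 3.61 in liver. Lep, the gene of leptin, was 18.53, 18.62, 18.23 and 17.70 in eWAT and 2.88, 2.69, 2.78 and 3.43 in liver, where it was dim. Neither gene overlapped between the tissues, and the eWAT libraries with hepatocyte transcripts were as high in both as the others to within 1 log2 unit. The differences were -15.63 ± 0.19 for Adipoq (adjusted p = 3.25e-12) and -15.32 ± 0.25 for Lep (adjusted p = 1.23e-11). Then came Nnat (neuronatin), Aoc3 (a surface amine oxidase of adipocytes), Trarg1 (a regulator of glucose transporter trafficking), the glutamine transporter Slc1a5, Plin1 (perilipin 1), Retn (resistin), Prkar2b (a regulatory subunit of protein kinase A) and Lgals12 (a galectin of the lipid droplet), at -14.33 to -13.44.

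**Figure D3:**
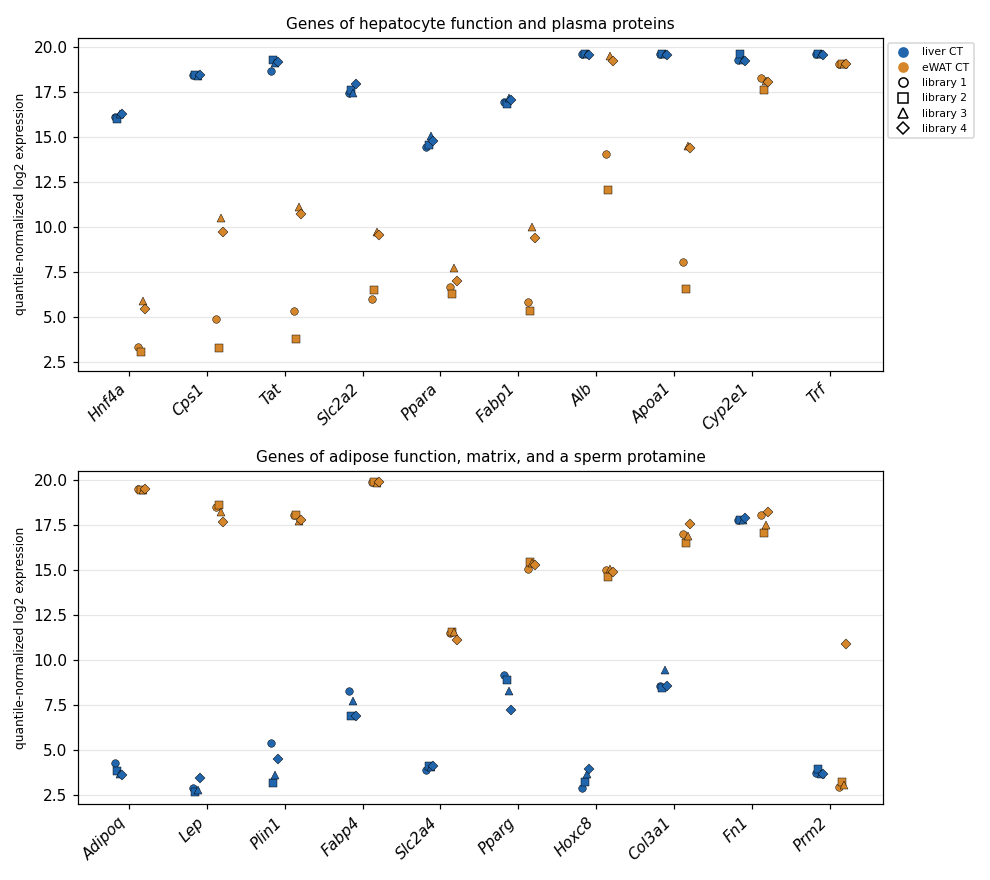
Quantile-normalized log2 expression (y axis) in each library of 10 genes of hepatocyte function and plasma proteins (top) and 10 genes of adipose function, matrix and sperm (bottom). Blue is liver CT, orange is eWAT CT and the marker shape gives the library number. Trf and Fn1 are high in both tissues, and Alb, Apoa1 and Cps1 separate eWAT libraries 3 and 4 from 1 and 2.

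Among enzymes of nitrogen and glucose metabolism, most were higher in liver. All 7 tested genes of the urea cycle list were called higher in liver (median difference 8.31, against 0.0018 over all genes tested). Cps1, which makes carbamoyl phosphate at the entry of the cycle, was 18.39 to 18.45 in liver and 4.89, 3.25, 10.49 and 9.70 in eWAT. Its difference was 11.33 ± 1.36 (adjusted p = 2.38e-05), and 14.59 without eWAT libraries 3 and 4, where Cps1 was over 4 log2 units lower than in those libraries. Otc, the next enzyme, differed by 10.55 ± 0.33 (11.22 without them). Of 28 amino acid breakdown genes, 27 were higher in liver (median 9.20), including Tat (tyrosine aminotransferase, 11.33 ± 1.42), Hgd (11.03 ± 0.62) and Kynu (10.68 ± 0.28). Without eWAT libraries 3 and 4, Tat differed by 14.79 and Hgd by 12.45. Gstz1, which acts late in tyrosine breakdown, was not called: it was 16.95 to 17.07 in liver and 17.49 to 17.98 in eWAT. It changed sign with median centring (1.34), and it was called towards eWAT without eWAT libraries 3 and 4 (-1.01). Of 13 genes of glucose production and glycogen, 11 were higher in liver (median 7.80). G6pc, which releases free glucose, differed by 10.74 ± 0.94 and Fbp1, a gluconeogenic phosphatase, by 11.03 ± 0.98 (13.26 and 13.16 without eWAT libraries 3 and 4). Pklr, the pyruvate kinase of liver, was 16.07 to 16.98 in liver and 5.45, 4.30, 7.18 and 7.09 in eWAT (10.64 ± 0.57, and 11.97 without libraries 3 and 4). Gys2, the liver glycogen synthase, had a smaller difference, at 8.79 to 9.40 in liver and 4.83 to 6.31 in eWAT (3.56 ± 0.31).

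A pair of genes on the glucose list were not higher in liver. Pck1, which makes phosphoenolpyruvate for glucose in liver and for glycerol in fat, was 17.55, 17.91, 18.07 and 18.21 in liver and 18.16, 17.96, 18.53 and 18.67 in eWAT, so the libraries overlapped (-0.39 ± 0.22, adjusted p = 0.141; 2.17 after median centring). Pcx, pyruvate carboxylase, was 14.49 to 14.93 in liver and 16.13 to 16.58 in eWAT, a difference of -1.79 ± 0.18 (adjusted p = 6.09e-06). After median centring, 12 of the 13 genes of the list were called higher in liver and 0 in eWAT, so the call of Pcx depended on the scaling.

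Bile acid and detoxifying enzymes were mostly liver genes. All 11 bile acid synthesis genes were called (median 8.79). Cyp7a1, the rate-limiting enzyme of bile acid synthesis, was 13.27, 14.99, 13.61 and 15.38 in liver and 4.73 to 5.97 in eWAT (8.72 ± 0.47), with a spread of over 2 log2 units among the liver libraries. Of 24 cytochromes P450, 22 were higher in liver and 2 in eWAT (median 10.16). Cyp3a11, a main drug-metabolizing form, differed by 10.64 ± 1.19 (13.66 without eWAT libraries 3 and 4). Cyp2e1, which oxidizes ethanol, was high in both tissues, at 19.22 to 19.62 in liver, where library 2 was at the ceiling, and 18.27, 17.60, 18.08 and 18.06 in eWAT (1.35 ± 0.19). The pair higher in eWAT were Cyp1b1, which hydroxylates estrogens, at 9.88 to 10.50 in eWAT and 3.23 to 3.81 in liver (-6.73 ± 0.20), and Cyp4b1 (-1.15 ± 0.22, and -0.91, not called, without eWAT libraries 3 and 4). Of 22 conjugation genes, 18 were higher in liver and 2 in eWAT (median 4.31). Ugt2b34, which joins glucuronic acid to its substrates, was 15.48 to 15.79 in liver and 3.40, 3.38, 5.79 and 6.17 in eWAT (10.99 ± 0.59, and 12.19 without libraries 3 and 4). The 2 higher in eWAT were Nnmt, which methylates nicotinamide (-1.52 ± 0.26), and Gstm2, a glutathione transferase (-1.22 ± 0.18). Both calls depended on the scaling, since 0 conjugation genes were called higher in eWAT after median centring. The aldehyde oxidase Aox1 was level, at 13.70 to 14.15 in liver and 13.79 to 14.16 in eWAT. P450, Ugt, Sult and Gst genes have close relatives in the genome, so a probe set may also measure a related copy.

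**Figure D4:**
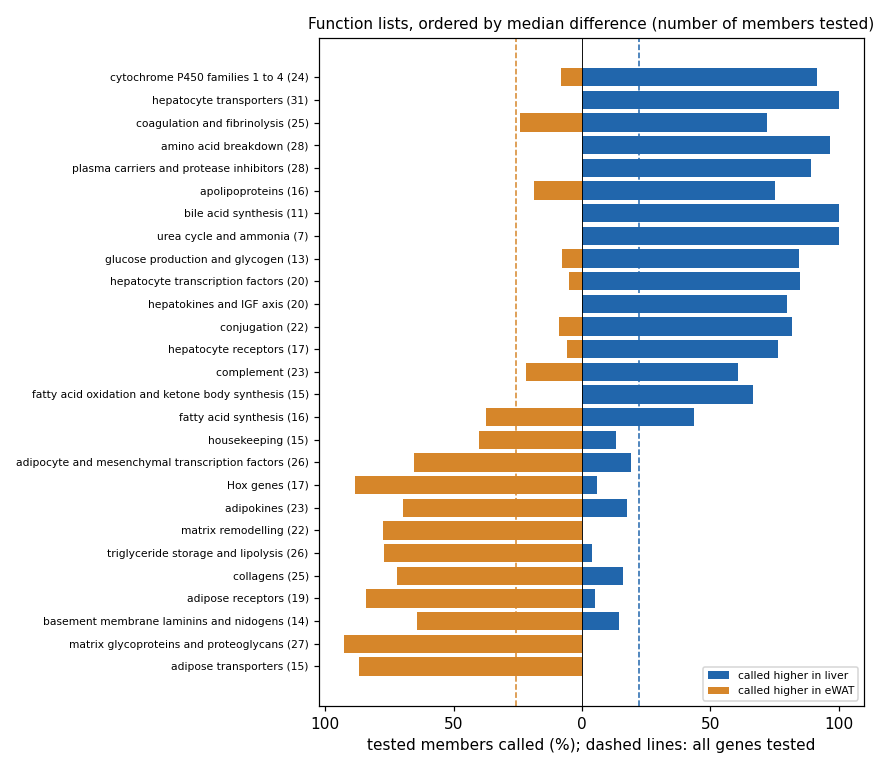
Share of tested members called higher in liver (blue, to the right) or in eWAT (orange, to the left) for each function list, with the number tested in parentheses, ordered by the list's median difference. Dashed lines give the shares over all genes tested, 22.2% and 25.6%. Lists from P450 down to complement lie to the liver side and lists of triglyceride storage, matrix and adipose receptors to the eWAT side.

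Lipid enzymes divided by step. Of 15 genes of fatty acid oxidation and ketone synthesis, 10 were higher in liver and none in eWAT, but the median difference was small (1.66). Bdh1, which interconverts the ketone bodies, had the largest (16.01 to 16.36 in liver and 4.35 to 6.60 in eWAT, 11.06 ± 0.41, and 11.89 without eWAT libraries 3 and 4). Ehhadh and Crot, which act in peroxisomes, differed by 5.14 ± 0.24 and 5.47 ± 0.18. Of mitochondrial oxidation, Acaa2 was higher in liver (4.06 ± 0.17). Hadhb and Acadm, also mitochondrial, overlapped between the tissues and were not called (0.16 ± 0.17 and 0.24 ± 0.25). After median centring all 15 genes of the list were called higher in liver (median 2.74). Of 26 genes of triglyceride storage and lipolysis, 20 were higher in eWAT and 1 in liver (median -2.93). Plin1, which coats the adipocyte droplet, was 17.72 to 18.05 in eWAT and 3.17 to 5.42 in liver (-13.72 ± 0.41). Lpl, which takes fatty acids from circulating triglyceride, was 19.67 to 19.71 in eWAT and 8.79 to 10.03 in liver (-10.39 ± 0.25). Lipe, hormone-sensitive lipase, was 18.50 to 18.74 in eWAT and 7.15 to 8.29 in liver (-10.85 ± 0.25). Plin2, the perilipin of most cells with droplets, was 14.57 to 15.61 in liver and 15.07 to 16.04 in eWAT (-0.19 ± 0.28, not called; 1.15 after median centring). Fitm1, a droplet-forming membrane protein, was the member higher in liver, at 8.56 to 9.35 there and dim in eWAT at 2.92 to 3.03 (5.88 ± 0.20). Of 16 fatty acid synthesis genes, 7 were higher in liver and 6 in eWAT (median -0.43). Fasn, the fatty acid synthase, was 14.59 to 15.77 in liver and 18.04 to 18.94 in eWAT (-3.27 ± 0.28), while the elongase Elovl3 was 17.19 to 17.68 in liver and 4.56, 3.55, 9.30 and 7.86 in eWAT (11.17 ± 1.04, and 13.57 without libraries 3 and 4). Fads2, a desaturase of polyunsaturated fatty acids, was 18.05 to 18.34 in liver and lower in every eWAT library (6.24 ± 0.38, and 7.36 without eWAT libraries 3 and 4). Acly, which supplies cytosolic acetyl-CoA, was not called in all 8 libraries (-0.53 ± 0.41), and was called towards eWAT without eWAT libraries 3 and 4 (-1.16).

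Transporters were listed as hepatocyte or adipose, so the side on which they lay is a description and no test. All 31 hepatocyte transporters were higher in liver (median 9.64), and 13 of 15 adipose transporters were higher in eWAT with none higher in liver (median -8.33). Abcc2, which exports conjugates into bile, was 17.04 to 17.29 in liver and 3.86, 4.25, 8.41 and 7.17 in eWAT (11.26 ± 0.86, and 13.23 without eWAT libraries 3 and 4). Fabp4, the fatty acid binding protein of adipocytes, was 19.86 to 19.91 in eWAT and 6.88 to 8.27 in liver (-12.45 ± 0.29). Abcb11, the bile salt export pump, was 15.70 to 15.96 in liver and 4.02 to 5.37 in eWAT (11.09 ± 0.27). Cd36, which takes up long-chain fatty acids, was 18.56 to 18.74 in eWAT and 9.22 to 10.05 in liver (-8.98 ± 0.20). Slc7a10, a transporter of small neutral amino acids, was 13.49 to 13.64 in eWAT and dim in liver at 2.78 to 3.28 (-10.59 ± 0.17). Both members not called were on the adipose list: Fabp5 overlapped between the tissues (-0.48 ± 0.36), and the cholesterol exporter Abca1 fell just short of the 2-fold threshold (-0.97 ± 0.18, adjusted p = 0.000764).

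Transcripts of plasma proteins were mostly higher in liver. Of 28 carriers and protease inhibitors, 25 were higher in liver and none in eWAT (median 9.10). Hrg (histidine-rich glycoprotein) was 18.08 to 18.22 in liver and 4.56, 3.74, 10.39 and 9.70 in eWAT (11.07 ± 1.31, and 14.24 without eWAT libraries 3 and 4). Alb itself was not called over all 8 libraries, with an SD of 3.71 in eWAT (3.41 ± 1.41, adjusted p = 0.0530). It was called without eWAT library 3 (4.55), without library 4 (4.47) and without both (6.75). It was at the ceiling of the deposited scale in all 4 liver libraries, which compresses its difference. The median level of the list was 6.42, 5.05, 12.78 and 12.12 in eWAT libraries 1 to 4, so most members were higher in libraries 3 and 4. Trf, Hp and Rbp4, chosen after their values were seen, were about as high in eWAT libraries 1 and 2 as in 3 and 4. Trf, the iron carrier transferrin, was 19.57 to 19.62 in liver and 19.02, 19.05, 19.04 and 19.02 in eWAT. It was at the ceiling in all 4 liver libraries, so the size of its difference could not be measured. Hp, the hemoglobin-binding haptoglobin, was 18.78 to 18.89 in liver and 19.71, 19.57, 19.68 and 19.62 in eWAT (-0.81 ± 0.15, not called; 1.44 after median centring). Rbp4, the retinol carrier, was 18.25 to 18.35 in liver and 16.08, 16.69, 16.53 and 16.22 in eWAT (1.91 ± 0.18).

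Clotting and complement lists held members of both tissues. Of 25 coagulation and fibrinolysis genes, 18 were higher in liver and 6 in eWAT (median 9.31). Serpinc1, antithrombin, differed by 10.87 ± 1.13 and Plg, plasminogen, by 10.51 ± 1.10 towards liver (13.65 and 13.47 without eWAT libraries 3 and 4). F13a1, the factor XIII subunit that macrophages make, was 13.67 to 14.55 in eWAT and 3.48 to 4.42 in liver (-10.39 ± 0.26), and Plau, the urokinase that activates plasminogen, was 12.22 to 12.65 in eWAT and 3.61 to 4.78 in liver (-8.25 ± 0.25). Thbd, thrombomodulin of endothelium, differed by -7.81 ± 0.31. Of 23 complement genes, 14 were higher in liver and 5 in eWAT (median 3.56). Cfi, which cleaves activated complement, differed by 11.07 ± 0.39 (11.96 without eWAT libraries 3 and 4), while C7, a subunit of the membrane attack complex, was 15.46 to 16.65 in eWAT and 6.98 to 7.91 in liver (-8.46 ± 0.29). C1qb, of the complex that starts the classical pathway and is made by macrophages, was 12.73 to 13.90 in eWAT and 9.84 to 10.11 in liver (-3.20 ± 0.25). Of 16 apolipoprotein genes and partners, 12 were higher in liver and 3, Lpl, Apod and Pltp, in eWAT (median 8.95). Apoa5, which promotes lipolysis of circulating triglyceride, differed by 10.91 ± 0.41 (11.80 without eWAT libraries 3 and 4), and Apod, a lipocalin, by -6.46 ± 0.29. Apoe was at the ceiling in all 4 liver libraries and near it in eWAT, so its difference could not be measured.

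Hormones and growth factors followed the same division with exceptions. Of 20 hepatokines and members of the insulin-like growth factor axis, 16 were higher in liver and none in eWAT (median 4.51). Igfbp1, which binds the growth factors, differed by 9.14 ± 0.47 and Hamp, the iron hormone hepcidin, by 8.90 ± 0.59 (9.94 and 10.15 without eWAT libraries 3 and 4). Lect2, a hepatocyte chemotactic protein, was 12.45 to 12.58 in liver and 3.15 to 3.90 in eWAT (8.96 ± 0.21). Igf1 was 17.89 to 18.29 in liver and 18.02 to 18.25 in eWAT (-0.12 ± 0.16, not called; 1.17 on the deposited values and 2.38 after median centring). Of 23 adipokines, 16 were higher in eWAT and 4 in liver (median -2.47). Retn was 17.19 to 17.52 in eWAT and 3.60 to 3.87 in liver (-13.62 ± 0.16), and its relative Retnla was 14.83 to 16.58 in eWAT and dim in liver (-12.53 ± 0.34). The 4 higher in liver were Cxcl12 (a chemokine, 2.90 ± 0.19), Agt (angiotensinogen, 1.97 ± 0.17), Rbp4 and Rarres2 (chemerin, 1.50 ± 0.21).

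Receptors followed the hormones only in part. Of 17 hepatocyte receptors, 13 were higher in liver and 1 in eWAT (median 4.12). Gcgr, the glucagon receptor, was 11.05 to 11.66 in liver and dim in eWAT at 2.96 to 3.59 (8.10 ± 0.20), and Tfr2, an iron-sensing receptor, differed by 9.80 ± 0.22. Asgr1, of the receptor that clears desialylated glycoproteins, was 13.59 to 13.67 in liver and 4.63 to 6.00 in eWAT (8.59 ± 0.28). Klb, the FGF21 co-receptor, was 11.92 to 12.36 in liver and 11.56 to 12.45 in eWAT (0.10 ± 0.21, not called). Ghr, the growth hormone receptor, was 17.63 to 17.75 in liver and 19.27 to 19.48 in eWAT (-1.71 ± 0.15, adjusted p = 1.92e-06), a direction that turned with median centring (0.54). Of 19 adipose receptors, 16 were higher in eWAT and 1 in liver (median -3.75). Tshr, the thyrotropin receptor, was 15.16 to 15.90 in eWAT and dim in liver (-12.55 ± 0.23), and Npr3, which clears natriuretic peptides, differed by -12.19 ± 0.22. Acvr1c, an activin receptor, was 15.21 to 15.40 in eWAT and 3.30 to 3.97 in liver, and Hcar1, the lactate receptor, was 13.18 to 13.37 in eWAT and 2.52 to 3.70 in liver. Lepr, the leptin receptor, was 7.63 to 8.05 in liver and 4.45 to 6.10 in eWAT (2.70 ± 0.32, adjusted p = 1.97e-05), the opposite direction to that of Lep. The adiponectin receptors Adipor1 (-0.79 ± 0.17) and Adipor2 (0.80 ± 0.18) and the insulin receptor Insr (0.25 ± 0.16) were not called.

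Hepatocyte and adipocyte regulators were also divided. Of 20 hepatocyte factors, 17 were higher in liver and 1 in eWAT (median 7.43). After Hnf4a the largest differences were those of Nr1i3, the xenobiotic receptor CAR (9.11 ± 0.43), and Creb3l3, a membrane-bound activator of lipid genes (9.04 ± 0.32, and 9.76 without eWAT libraries 3 and 4). Prox1, needed for hepatocyte growth in development, was 13.90 to 14.63 in liver and 5.41 to 6.61 in eWAT (8.17 ± 0.27, and 8.76 without libraries 3 and 4). Cebpa, a C/EBP factor of both cell types, was 13.66 to 13.95 in liver and 15.38 to 15.69 in eWAT (-1.70 ± 0.16). Its call depended on the scaling, since 0 hepatocyte factors were called higher in eWAT after median centring. Onecut1 was called (6.76 ± 1.23), although its liver libraries ran from 7.49 (library 3) to 14.79 (library 1). Of 26 adipocyte and mesenchymal factors, 17 were higher in eWAT and 5 in liver (median -1.95). Ebf1, an adipocyte regulator, was 16.55 to 16.74 in eWAT and 6.27 to 6.63 in liver (-10.19 ± 0.16), and Osr1, a mesodermal factor, differed by -11.46 ± 0.38. Ebf2 and Zfp423, factors of adipocyte precursors, differed by -7.86 ± 0.19 and -7.49 ± 0.33. Ppargc1a, a coactivator of mitochondrial genes, was 11.34 to 12.68 in liver and 8.12 to 8.83 in eWAT (3.63 ± 0.29), and Klf15 was 12.33 to 13.86 in liver and 8.54 to 9.37 in eWAT (4.19 ± 0.32).

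Hox genes record position along the body axis. Of 33 on the array, 15 were called higher in eWAT and 1 in liver, 1 was tested and not called, and 16 were dim in both tissues and not tested. Since a member could pass the filter through its level in eWAT alone, the count over tested members is not a count over all Hox genes. Hoxc8 was 14.65 to 15.09 in eWAT and 2.91 to 3.97 in liver (-11.47 ± 0.24), and Hoxc6 differed by -8.20 ± 0.25 and Hoxc4 by -5.44 ± 0.29. Hoxc9 was the exception, low in both at 4.31 to 4.79 in liver and 3.30 to 3.52 in eWAT (1.17 ± 0.17, and 0.995, not called, without eWAT libraries 3 and 4).

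Matrix genes lay mostly on the eWAT side. Of 25 collagen chains, 18 were higher in eWAT and 4 in liver (median -3.01). Col3a1, a fibrillar chain, was 16.50 to 17.59 in eWAT and 8.43 to 9.45 in liver (-8.23 ± 0.29). Col6a1 and Col15a1, a microfibrillar and a basement membrane chain, differed by -7.89 ± 0.38 and -8.04 ± 0.35. Col18a1, the chain that holds endostatin, was 16.31 to 16.43 in liver and 12.59 to 12.98 in eWAT (3.63 ± 0.16). Of 14 laminins and other basement membrane genes, 9 were higher in eWAT and 2, Lama1 and Agrn, in liver (median -4.51), with the direction of Agrn lost on the deposited values (-0.0425). Nid1, which links laminin to collagen, was 18.10 to 18.51 in eWAT and 8.99 to 9.53 in liver (-9.07 ± 0.19). Of 27 matrix glycoproteins and proteoglycans, 25 were higher in eWAT and none in liver (median -5.94). Thbs1, an activator of TGF-beta, was 15.46 to 17.11 in eWAT and 3.45 to 6.08 in liver (-11.46 ± 0.55), and Lox, which crosslinks collagen, was 12.05 to 12.87 in eWAT and 2.82 to 4.45 in liver (-8.59 ± 0.35). Fn1, fibronectin, was the member nearest to equal, at 17.79 to 17.91 in liver and 17.05 to 18.23 in eWAT (0.11 ± 0.25, not called). This depended on the scaling. On the deposited values Fn1 averaged 18.36 in liver and 17.16 in eWAT, and 1 member of the list was called higher in liver. Of 22 matrix remodelling genes, 17 were higher in eWAT and none in liver (median -2.73), led by Timp4 (an inhibitor of metalloproteinases, -11.98 ± 0.26), Adamts5 (an aggrecanase, -11.23 ± 0.25) and Mmp12 (a macrophage elastase, -10.92 ± 0.49).

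Genes of general cell function included members called in each direction. Of 15 housekeeping genes, 2 (13.3%) were higher in liver, 6 (40%) were higher in eWAT and 7 were not called (median -0.92). Over all genes tested the shares were 22.2% and 25.6%. The direction depended on the scaling. After median centring 6 were higher in liver and 2 in eWAT (median 0.23), and on percentile ranks 0 and 1. Gapdh, of glycolysis, was 16.60 to 16.71 in liver and 16.56 to 16.89 in eWAT (-0.08 ± 0.16, not called; 1.66 after median centring), while its neighbour in the pathway, Pgk1, differed by 2.60 ± 0.19 and the tubulin Tubb5 by -2.67 ± 0.18.

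Pairs of related genes were chosen as a liver and an adipose form, so they describe a split within families and do not test it. Of 25 pairs, 17 had both members tested, and in 11 the liver form was higher in liver and the adipose form in eWAT. The glucose transporter Slc2a2, of liver, was 17.46 to 17.94 in liver and 6.00, 6.47, 9.69 and 9.55 in eWAT (9.69 ± 0.76, and 11.78 without eWAT libraries 3 and 4). Slc2a4, the insulin-regulated transporter, was 11.13 to 11.59 in eWAT and 3.90 to 4.14 in liver (-7.41 ± 0.17). The pair of lipid-sensing nuclear receptors did the same, with Ppara at 14.43 to 15.06 in liver and 6.24 to 7.71 in eWAT (7.82 ± 0.30, and 8.50 without libraries 3 and 4) and Pparg at 15.05 to 15.47 in eWAT and 7.22 to 9.17 in liver (-6.91 ± 0.37). So did the glycerol channels Aqp9 (9.95 ± 0.55, and 11.43 without eWAT libraries 3 and 4) and Aqp7 (-11.87 ± 0.18). Dgat2 and Dgat1, which add the last acyl chain of triglyceride, were both higher in eWAT (-2.78 ± 0.19 and -2.63 ± 0.23). The amino acid transporters Slc38a4 (11.11 ± 1.25, and 14.26 without eWAT libraries 3 and 4) and Slc38a2 (3.24 ± 0.21) and the carnitine acyltransferases Cpt1a (2.58 ± 0.20) and Cpt1b (1.99 ± 0.36) were both higher in liver.

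**Figure D5:**
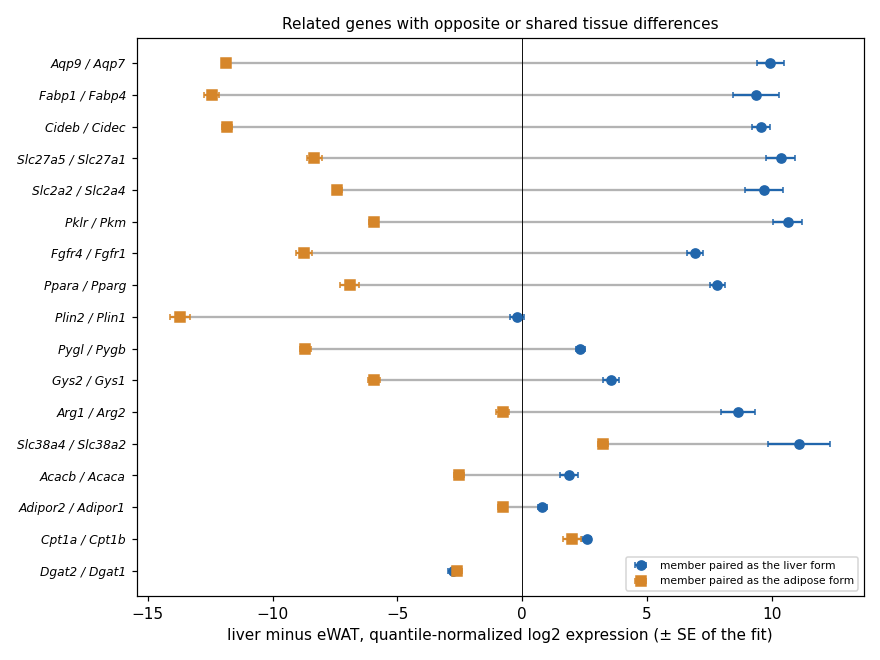
Difference between liver and eWAT in quantile-normalized log2 expression (x axis, ± SE of the fit) for both members of the 17 pairs with both tested, blue circles for the member paired as the liver form and orange squares for that paired as the adipose form. Points on opposite sides of 0 are members with opposite differences, as for Slc2a2 (9.69) and Slc2a4 (-7.41).

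Cell type markers were set against the tissue labels. Over all genes tested, 22.2% were called higher in liver and 25.6% in eWAT. Counts of a few members near these shares, as for B cell, T cell, exocrine pancreas and brown adipocyte markers, are no result about a cell type. Of the 10 hepatocyte markers, 9 were higher in liver (Alb was the exception), and all 9 adipocyte markers tested were higher in eWAT, where their summed level was 21.65 to 21.83 against 9.51 to 10.45 in liver. Clec4f, the lectin of Kupffer cells, was 9.95 to 10.54 in liver and dim in eWAT at 2.97 to 3.52 (7.06 ± 0.20), and of 7 Kupffer cell markers 5 were higher in liver and 2 in eWAT. All 8 general macrophage markers were higher in eWAT. Stab2, a scavenger receptor of liver sinusoids, was 11.14 to 11.39 in liver and dim in eWAT (8.10 ± 0.16), and of the 9 markers of that endothelium 6 were higher in liver, 1 (Lyve1) in eWAT and 2 were not called, while 7 of 8 vascular endothelial markers were higher in eWAT. Lrat, which stellate cells use to store retinol, differed by 6.30 ± 0.22 towards liver. Of 7 stellate cell markers, 5 were higher in liver and 2, Rgs5 and Des, which pericytes or smooth muscle also express, in eWAT, where the summed level of the list was 14.85 to 14.97 against 13.14 to 13.35 in liver. Of 9 mesothelial markers, 8 were higher in eWAT, Msln at 6.63 to 8.02 there and 3.33 to 6.02 in liver. All 6 smooth muscle markers were higher in eWAT, as were 5 of 8 adipose stromal markers (1 was higher in liver), 4 of 6 cholangiocyte markers (1 in liver) and 3 of 7 skeletal muscle markers. Both red blood cell markers tested were higher in liver. Of 5 B cell markers 1 was higher in eWAT, and of 5 T cell markers 2 were higher in eWAT and 1 in liver. The mesothelial and cholangiocyte lists share Krt19. Of 9 exocrine pancreas markers 3 were higher in liver, and of 4 Schwann cell markers 2 were higher in eWAT. Of 6 brown adipocyte markers 2 were higher in eWAT and 2 in liver, Elovl3 and Ppara, both named above among lipid enzymes or gene pairs. Of 15 epididymal genes 10 were dim in both tissues. Of the 14 sperm genes, chosen after seeing the data, 13 were at least 1 log2 unit higher in eWAT library 4 than in every other eWAT library, with summed levels of 9.90 to 13.31 over the eWAT libraries. Their part in the differences above was not tested, except that leaving out this library is among the alternatives given.

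The tissue difference was also fitted in the offspring of obese fathers. Fitted alone, the 8 F1 libraries gave 3316 genes (21.8%) higher in liver and 3800 (25%) higher in eWAT. All 4 F1 eWAT libraries held hepatocyte transcripts: on the scale of that fit Alb was 17.38, 19.23, 16.95 and 19.45 in libraries 1 to 4, and the summed level of the 10 hepatocyte markers was 19.13 to 20.63, against 17.64 to 20.16 in CT eWAT. Cyp2e1, at 18.69 to 19.31 in F1 eWAT, supplied most of the sums of F1 libraries 1 and 3 and of the lowest CT sum. The sums are therefore no plain measure of hepatocyte transcript. The part of the hepatocyte transcripts in this comparison was not tested. Of the 7184 genes called in CT and tested in F1, 6234 were called in the same direction and 0 in the opposite one. Tested as an interaction of tissue and father over 16 libraries, 12 of 15188 genes (0.079%) had a tissue difference that itself differed between CT and F1 at an adjusted p under 0.05 (1440 had an unadjusted p under 0.05). The count was 3 with the replicate number as a block and 18 without eWAT CT libraries 3 and 4. It was 6 to 14 when 1 library was left out, and lowest without liver CT library 3 (6), eWAT F1 library 1 (6) or eWAT CT library 4 (7). Moxd1, a monooxygenase-like protein, was 5.53 to 7.63 in CT liver and 4.36 to 4.66 in CT eWAT, and its tissue difference was 2.13 in CT and 8.84 in F1, each fitted alone (CT minus F1 in the joint fit -6.68 ± 0.60, adjusted p = 5.15e-05). Mt2, a metallothionein, differed by -6.39 in CT and -2.48 in F1 (-3.92 ± 0.51, adjusted p = 0.00549), and Spry4, an inhibitor of growth factor signalling, by -2.61 and 0.48 (-3.08 ± 0.42, adjusted p = 0.00549).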

How the data were processed

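Gene expression was measured on Affymetrix arrays from 150 ng of total RNA with an RNA integrity number above 8, per the labels' protocols. The authors deposited log2 values of 22206 probe sets, made by RMA; the submitters' processing notes name Transcriptome Analysis Console 4.0. Array background flags and scan batches were not used here, and the number of arrays limits the precision.

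Gene symbols came from the annotation table of the array: 1 symbol for 19572 probe sets, several for 0 and none for 2634. Of 19505 genes, 55 had over 1 probe set, and the brightest was kept. The 8 CT libraries were quantile-normalized together with limma 3.58.1 in R 4.3.3, because a liver and an eWAT library differed by up to 1.51 to 1.68 at the same rank. Genes whose mean lay under the 25th percentile were left out. Tissues were compared with limma (lmFit and eBayes), with Benjamini-Hochberg adjustment over all genes tested. A gene was called at an adjusted p under 0.05 and a log2 difference of at least 1. The interaction of tissue and father was fitted over all 16 libraries and called at an adjusted p under 0.05. Every adjusted p is from limma. On data simulated for 19505 genes, 89% of genes changed by 2 log2 units reached an adjusted p under 0.05, and 48% of those changed by 1. The fold threshold and the filter on dim genes were not applied there. Only 100 genes were changed by each amount, far fewer than were called here, so these are not rates for the calls above.

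Genes named were the 10 with the largest difference per direction, up to 5 members per function list in the list's direction, up to 3 in the other and up to 2 not called (4 per direction and 2 not called where a list has no tissue), pairs of related genes, and cell type markers. Other genes, among them the 12 of the interaction, Alb, Apoa1, Cyp2e1, Cyp7a1, Onecut1, Rarres2 and the sperm list, were chosen after their values were seen. The libraries were chosen by their labels. The gene lists and their members were chosen with earlier results of these data known, so a list's agreement with its tissue is a description and no test. List genes without a match on the array were not analysed here. Promoters are RefSeq sequences of GRCm38.p6.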

Additional observations from a re-analysis of the deposited data

Results flagged for a closer look

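In 26 of the 538 groups of 4 libraries examined, the gap between 1 library and the nearest of the other 3 was large for the group's range on the quantile-normalized log2 scale; chance flags about 1 group in 20. Several of these ranges were small, such as 0.115 for Fn1, 0.163 for Actb and 0.206 for Sult2a8 and Cidec. The widest gaps were those of the sperm genes in eWAT library 4, where Prm1 was 11.10 and Prm2 10.92. Prm2 was also set apart in liver library 2 at 3.96, near the dim limit. In eWAT library 2 the low values were Arg1 (4.24), Cyp7a1 (4.73), Ebf2 (11.31) and Col6a1 (13.77). In eWAT library 4 they were Cidec (19.12) and Npr3 (18.80).

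In liver library 1, F13a1 was high (4.42), and Fam13a (10.39) and Lrat (10.36) were low. In liver library 2, Col8a2 (7.11) and Cyp2e1 (19.62, at the ceiling) were high, and Pzp (19.32) and Rarres2 (9.74) were low. In liver library 3, Slc27a2 (17.63) and Col3a1 (9.45) were high, and Sult2a8 (17.33), Thrsp (13.09, against 14.78 to 14.81 in the others) and Actb (18.18) were low. In liver library 4, Lama4 (9.14) and Fn1 (17.91) were high, and Abca1 (13.96), Nr2f2 (11.06) and Cxcl1 (5.13) were low.

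The tissue difference of 12 genes differed between CT and F1 by the interaction test. As CT minus F1 of the liver minus eWAT difference, the values were -6.68 for Moxd1, -3.92 for Mt2, -3.08 for Spry4, -2.89 for Scara5, -2.68 for Cxcl1, -1.59 for Fndc3b, -1.54 for Btg2 and -1.38 for Skap2. They were 2.37 for Fam13a, 2.18 for Tcim, 1.67 for Mme and 1.38 for H4c3.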

How the results depend on the processing

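The counts of genes higher in liver and in eWAT moved by over 1.5 times under a pair of settings: the deposited values gave 1835 and 6700, and a 4-fold threshold gave 1599 and 2106. Percentile ranks gave 2588 and 2930, and no filter on dim genes 3421 and 3963. Leaving out 1 library gave 3275 to 3422 genes higher in liver and 3802 to 3957 higher in eWAT. On the deposited values these genes changed sign: Fst (-1.38), Igf1 (1.17), Tcf21 (-1.10), Col14a1 (-1.17), Agrn (-0.0425) and Lama3 (-1.23). After median centring these did: Pck1 (2.17), Gstz1 (1.34), Lpin1 (1.75), Plin2 (1.15), Scd1 (1.22), Hp (1.44), Apoe (1.27), Serping1 (2.19), Igf1 (2.38), Ghr (0.54), Actb (0.35) and Gapdh (1.66). Scd1 was at the ceiling in all 8 libraries and Apoe in all 4 liver libraries, so their values show only the centring's shift or a compressed difference. The cause was not tested. Of the alternatives run, the replicate block gave 3370 and 3896 genes. Deviations of same-numbered liver and eWAT libraries had correlations of -0.0016 to 0.0414, highest for numbers 1 (0.0391) and 4 (0.0414). Differently numbered libraries had correlations of -0.0439 to 0.0202. Such small values cannot show whether libraries share an animal. The labels do not state it, so the numbers were not taken as pairs. The interaction count was 3 with the replicate block, 6 to 14 with 1 library left out and 18 without eWAT CT libraries 3 and 4. Brightness limits the ends of the scale: values at the ceiling compress differences, and dim values give fitted differences that are no measured ratio.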
